A study of Homo sapiens with 12 samples.

Results

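The shared shear response is the set of genes that moved in the same direction in ONS76 and in DAOY cells when cultures were shaken. ONS76 and DAOY are established human cell lines from medulloblastoma, a malignant tumour of the cerebellum, and the labels give both as wild type (WT). The 12 RNA libraries form 4 groups of 3: ONS76 under fluid shear stress (FSS), static ONS76, DAOY under FSS and static DAOY. All 4 groups were kept in 6-well plates in artificial cerebrospinal fluid (aCSF). The FSS plates were gyrated on an orbital shaker at 100 rpm for 18 h, the static plates were not, and total RNA was taken after 18 h. Shear and any other effect of standing on the shaker cannot be told apart in this design. The design text calls the 3 libraries of a group biological replicates and does not say how the cultures were separated, so the spread between libraries is the only error available.

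Members were chosen from the deposited raw counts of all 12 libraries, expressed as CPM, the counts of a gene for every 1 M counts of the TMM-adjusted library. Of 63241 genes in the table, 19631 were tested, and 9012 of these had a mean of 5 CPM or more in every one of the 4 groups. A gene of these 9012 was a member when its 3 FSS libraries lay all above, or all below, the 3 static libraries in ONS76, and did so in the same direction in DAOY. This gave 2796 members, 31% of the 9012 genes: 1214 rising (13.5%) and 1582 falling (17.6%). Under upper-quartile scaling the rule gave 1434 of each, so the excess of falling over rising members was not kept in every scaling. It was kept under RLE scaling (1219 rising, 1575 falling) and with raw library totals (1296 rising, 1578 falling). A further 616 genes (6.84%) had no overlap in either line but opposite signs. The measured values chose the members, so their size, direction and separation are a description and carry no test here. The fall in LZTS1, with its lowest group mean at 5.005 CPM, lay just inside the level, and the rise in ST3GAL2, at 4.990 CPM, just outside it. Another 1028 tested genes moved the same way without overlap but missed the level in at least 1 group.

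Cells carry several programmes that change many transcripts together. In the heat shock response, heat shock factor binds promoters of chaperone genes, whose products fold proteins and keep them soluble. RBM3 and CIRBP are RNA-binding proteins named for their rise in cooled cells. In the cell division cycle, E2F factors switch on genes for DNA synthesis, while the DREAM and B-MYB complexes act through CHR elements, often beside CCAAT boxes, on genes for mitosis. Endothelial cells are the classic cells that sense fluid shear, through channels such as PIEZO1 and transcription factors such as KLF2 and KLF4.

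Promoter sequences of members of the heat shock and cell cycle lists are shown because, of the lists with 10 or more genes at the level, these held the largest shares of rising and of falling members, and because each has a known element that can be looked for. The sequences are RefSeq promoters on build GRCh38.p14, printed from 100 bases before the start site to 20 bases from it, 5′ to 3′, with the motif in capitals. The genes were chosen for display after their values and motifs were seen. The heat shock element was searched as 3 alternating units of GAA and TTC set 2 bases apart, on both strands, from 250 bases before to 50 bases after the start. It was found in 3 of the 15 rising chaperone genes, whose stretches are these.
CHORDC1, chr11:90223030-90223149, minus strand: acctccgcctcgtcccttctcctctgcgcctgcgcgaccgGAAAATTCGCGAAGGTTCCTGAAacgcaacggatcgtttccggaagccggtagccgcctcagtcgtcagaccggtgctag
HSPA8, chr11:123062117-123062236, minus strand: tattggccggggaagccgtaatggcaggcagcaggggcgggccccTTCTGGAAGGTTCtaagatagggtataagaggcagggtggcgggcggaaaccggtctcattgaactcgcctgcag
DNAJA1, chr9:33025173-33025292, plus strand: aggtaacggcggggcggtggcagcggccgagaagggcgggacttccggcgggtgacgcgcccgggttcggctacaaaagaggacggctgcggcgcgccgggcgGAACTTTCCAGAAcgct

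The E2F site was searched as TTTCCCGC, TTTGGCGC, TTTCGCGC or TTTGCCGC on both strands. These 4 stretches belong to falling genes of DNA replication: E2F1 codes for an E2F factor, CDT1 for a replication licensing factor, and MCM7 and MCM6 for subunits of the replicative helicase.
E2F1, chr20:33686366-33686485, minus strand: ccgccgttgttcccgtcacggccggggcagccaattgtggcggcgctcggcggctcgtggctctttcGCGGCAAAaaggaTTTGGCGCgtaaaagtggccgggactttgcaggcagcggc
CDT1, chr16:88803689-88803808, plus strand: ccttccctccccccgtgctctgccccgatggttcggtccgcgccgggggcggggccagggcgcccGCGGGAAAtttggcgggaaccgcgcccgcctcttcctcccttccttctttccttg
MCM7, chr7:100101378-100101497, minus strand: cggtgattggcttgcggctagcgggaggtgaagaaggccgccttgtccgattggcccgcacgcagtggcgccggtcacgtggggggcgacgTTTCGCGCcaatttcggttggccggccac
MCM6, chr2:135876424-135876543, minus strand: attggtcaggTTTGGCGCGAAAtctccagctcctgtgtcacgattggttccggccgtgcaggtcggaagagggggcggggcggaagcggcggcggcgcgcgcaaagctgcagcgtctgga

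The cell cycle homology region (CHR) was searched as TTTGAA on both strands. These stretches belong to falling genes of mitosis: CCNB2 codes for a B-type cyclin, PLK1 for a mitotic kinase, KIF11 for a spindle motor, and HMMR for a spindle-associated hyaluronan receptor.
CCNB2, chr15:59105046-59105165, plus strand: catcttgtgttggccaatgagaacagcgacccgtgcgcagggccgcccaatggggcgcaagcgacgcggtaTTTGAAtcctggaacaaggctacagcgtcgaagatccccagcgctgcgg
PLK1, chr16:23678789-23678908, plus strand: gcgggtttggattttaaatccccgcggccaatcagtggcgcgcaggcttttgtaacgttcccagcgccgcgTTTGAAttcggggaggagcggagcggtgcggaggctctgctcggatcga
KIF11, chr10:92593030-92593149, plus strand: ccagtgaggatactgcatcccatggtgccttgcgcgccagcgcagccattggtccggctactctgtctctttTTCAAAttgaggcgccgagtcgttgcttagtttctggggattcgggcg
HMMR, chr5:163460532-163460651, plus strand: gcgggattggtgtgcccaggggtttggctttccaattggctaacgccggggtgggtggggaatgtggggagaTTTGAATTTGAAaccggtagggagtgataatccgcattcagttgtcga

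Among promoters with an entry, 16 of 28 falling genes of the G1/S and DNA replication list held an E2F site (57.1%), against 7.97% of all falling members, 5.54% of rising members and 5.87% of the genes at 5 CPM or more. The share was 3.31% of all 35116 promoters in the table. A CHR was held by 15 of 25 falling genes of the G2/M and mitosis list (60%), against 13.1% of falling members, 8.27% of rising members and 9.27% of the genes at 5 CPM or more. Over all promoters the CHR share was 15.2%. No G2/M gene of the 25 held an E2F site, and 1 of the 28 G1/S genes held a CHR. The CCAAT box (CCAAT), searched on both strands, was found in 64.3% of the G1/S and 72% of the G2/M promoters, against 37.6% of the genes at 5 CPM or more. The heat shock element was rare: 7 of 992 rising members held it (0.706%), 0 of 1318 falling members, 0.244% of the genes at 5 CPM or more and 0.49% of all promoters. The strongly rising chaperone genes HSPH1, HSPA1A, HSPA1B and HSP90AA1 had no match. Only exact matches in the window were counted, so an element with altered letters or outside the window was missed. A motif match describes the letters in this window and is not a measured binding site. Most genes of the 2 cell cycle lists at the level were falling members (31 of 36 and 30 of 36), and the others were not counted apart. The list shares therefore cannot tell the make-up of a list from the response to shear.

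**Figure D1:**
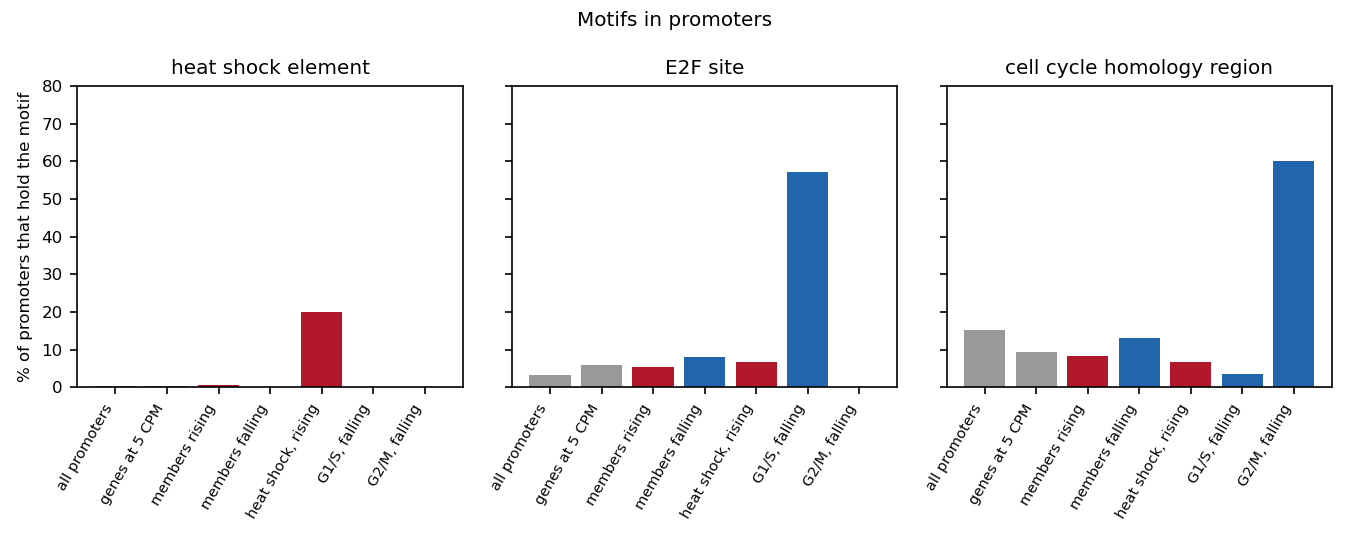
Share of promoters (%, 250 bases before to 50 after the start) that hold each of 3 motifs, for all 35116 promoters, genes at 5 CPM or more in every group, members, and members of 3 gene lists. The E2F site is in 57.1% of the falling G1/S genes and the CHR in 60% of the falling G2/M genes. The heat shock element is in 20% of the rising chaperone genes. Genes of these lists that were no members are not shown apart.

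Library totals ran from 38.1 to 49.3 M counts, and the common biological coefficient of variation was 4.87%. Static ONS76 libraries 1 and 2 stood apart from the third in heart muscle myosin transcripts: MYH6 was at 34.6 and 13.8 CPM and MYH7 at 21.4 and 7.36 CPM there, and both were at 0.34 CPM or less in the other 10 libraries. In the heart muscle list 2 of 10 genes reached 1 CPM in any library, these 2, and the defining markers TNNT2 and ACTC1 were at 0. Without both libraries, 1509 genes rose and 1980 fell by the membership rule, which is easier to meet with 1 static ONS76 library. The label medulloblastoma cell was checked against 10 lineage markers, of which 6 reached 1 CPM. SOX2 was at 0 in all libraries and ATOH1 at 0.0907 CPM or less. OTX2, a marker of some medulloblastoma subgroups, was at 0 in ONS76 and at 1.67 to 3.38 CPM in DAOY. ZIC1 was at 0.558 to 1.17 CPM in ONS76 and at 24.1 to 28.9 CPM in DAOY. The 10 lineage markers summed to 22.1 to 26.6 CPM in ONS76 and to 89.9 to 95.5 CPM in DAOY. Fibroblast markers, 7 of 7 above 1 CPM in some library, summed to 7.11 to 9.61 CPM in ONS76, and in DAOY to 4368 to 4602 CPM under FSS and 3786 to 4262 CPM in static culture. Collagen genes made up most of the DAOY sum, with COL3A1 at 1614 to 1647 CPM under FSS against 754 to 829 CPM and COL1A1 at 1740 to 1964 CPM against 2421 to 2744 CPM, and their part in the results was not tested.

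Most members moved by a small amount. The median rising member was up by 0.26 on the log2 scale, averaged over both lines (0.22 in ONS76, 0.27 in DAOY), and the median falling member was at -0.28 (-0.24 in ONS76, -0.32 in DAOY). Over all tested genes the median average change was 0.0030. An average change of 2-fold or more was reached by 8 rising and 12 falling members, and 1.5-fold in each line separately by 37 rising and 46 falling members. SCG2 was the only rising member past 2-fold in each line, and 3 members fell past 2-fold in each line: RBM3, CPA4 and APOBEC3B. The edgeR test of the average FSS effect called 2789 of the 2796 members at an adjusted p under 0.05. It called 20.2% of all tested genes higher and 20.2% lower, and because the rule used the same values nothing is read from the members' count. Taken line by line, the calls were 14.1% higher and 13.9% lower in ONS76, 19.5% higher and 20.1% lower in DAOY, and 895 rising and 1237 falling members were called in both.

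The responses of the lines have separate static controls and could be set side by side. Over the 9012 genes, Pearson's r between the ONS76 and the DAOY log2 change was 0.532 and Spearman's rho 0.498, as a description across genes, which are not independent replicates. Of 3412 genes without overlap in either line, 81.9% moved the same way. Members made up 56.6% of the genes without overlap in ONS76 and 48.8% of those without overlap in DAOY.

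**Figure D2:**
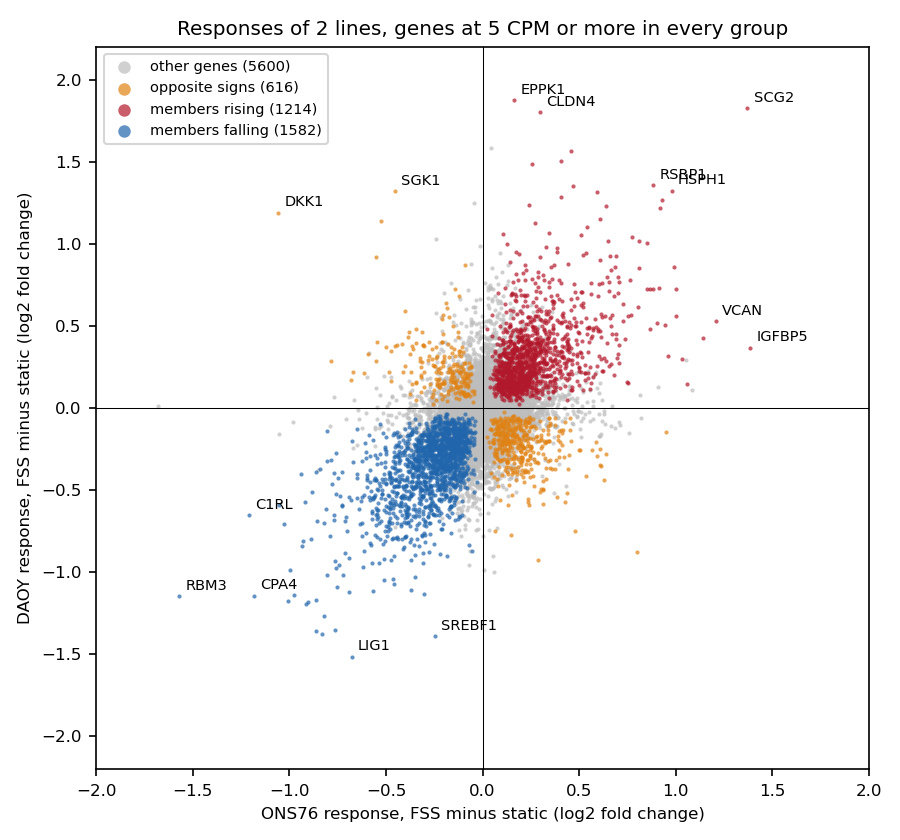
Log2 fold change (FSS minus static) of 9012 genes at 5 CPM or more in every group, in ONS76 (x axis) against DAOY (y axis). Members rising (1214) fill the upper right, members falling (1582) the lower left, and 616 genes with opposite signs lie in the other corners, with DKK1 farthest out.

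The largest rises were led by a secreted granule protein and by chaperones. SCG2, which codes for secretogranin II, a protein of secretory granules, was at 15.9, 23.2 and 15.3 CPM in the FSS libraries of ONS76 and at 7.63, 7.00 and 6.39 CPM in its static libraries. In DAOY it was at 34.6, 32.9 and 31.8 CPM under FSS and at 9.17, 9.50 and 9.26 CPM in static culture. Every FSS library was at least at 2 times the level of its line's highest static library, and the average rise was 1.60 ± 0.076 (SE) on the log2 scale.

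Most heat shock chaperones rose. Of 23 tested genes of the heat shock list, 18 were called higher and 1 lower, with a median average change of 0.44, and 15 of the 21 at the level were rising members against 1 falling. HSP90AB1, the constitutive HSP90, was no member, at 0.087 in ONS76 and -0.16 in DAOY. The cytosolic chaperonin and prefoldin list did not share the pattern: of 13 tested genes 3 were called higher and 4 lower, the median was 0.017, and 2 were rising members and 1 falling (15.4% and 7.69%, against 13.5% and 17.6% of all genes). HSPH1, a nucleotide exchange factor of the cytosolic chaperone machine, was at 903, 968 and 936 CPM under FSS in ONS76 and at 480, 470 and 473 CPM in static culture. DAOY libraries had it at 401, 386 and 412 CPM under FSS and at 165, 163 and 151 CPM in static culture. The groups lay far apart in both lines, and the average rise was 1.15 ± 0.028 (SE) on the log2 scale.

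HSP90AA1, the stress-inducible cytosolic chaperone of kinases and steroid receptors, was at 3321, 3554 and 3390 CPM under FSS in ONS76 against 1857, 1767 and 1831 CPM in static culture. In DAOY it was at 2854, 2687 and 2625 CPM against 1682, 1631 and 1596 CPM. All FSS libraries were thus clear of the static ones, and the average rise was 0.82 ± 0.026 (SE). The inducible chaperone genes HSPA1A and HSPA1B rose by 1.10 ± 0.031 and 1.07 ± 0.031 on the log2 scale. These genes are near-identical copies, so their separate values are uncertain, as the counting may split reads between them. The small chaperone HSPB1 (average log2 change 0.84), the J-domain cochaperones DNAJA1 (0.76) and DNAJB1 (0.46), the constitutive chaperone HSPA8 (0.68), the HSP90 cochaperones AHSA1 (0.56), STIP1 (0.41), PTGES3 (0.15) and CHORDC1 (0.75), and the mitochondrial chaperonin HSPD1 (0.34) were also rising members. The falling member of the list was HSF2, a heat shock transcription factor, at -0.24. CHORDC1, HSPA8 and DNAJA1 are the 3 whose promoters carry the heat shock element printed above. The chaperones of the endoplasmic reticulum were more mixed: of 21 tested, 13 were called higher and 2 lower. Their median change was 0.209 in ONS76 and -0.005 in DAOY, so the list as a whole did not rise in both lines. All 21 were at the level, with 5 rising members (23.8%), 1 falling (4.76%) and 4 of opposite sign in the lines. MANF, a secreted ER stress protein, was the rising member with the largest average change there (0.40 ± 0.036), and EDEM1, which hands misfolded glycoproteins to degradation, fell (-0.48 ± 0.030).

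RNA-binding proteins moved in both directions. RBM3 had the largest average fall of all members. It was at 152, 151 and 160 CPM under FSS in ONS76 and at 467, 459 and 447 CPM in static culture. Its DAOY values were 64.8, 61.0 and 68.6 CPM against 144, 139 and 147 CPM. The separation was wide in both lines, with an average change of -1.36 ± 0.030 (SE), and the fall was larger in ONS76 (difference of responses 0.42, adjusted p = 2.05e-06). CIRBP was at 218, 223 and 210 CPM against 382, 400 and 402 CPM in ONS76, and at 111, 97.6 and 99.0 CPM against 231, 218 and 240 CPM in DAOY. Its average change was -1.01 ± 0.031, and no FSS library came near a static one. RBMX (-0.55 ± 0.026) and SRSF5 (-0.59 ± 0.033), which take part in splicing, completed a list of 4 genes. All 4 were falling members, against 17.6% of all genes, but the list is short and was written with earlier results of these data known.

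**Figure D3:**
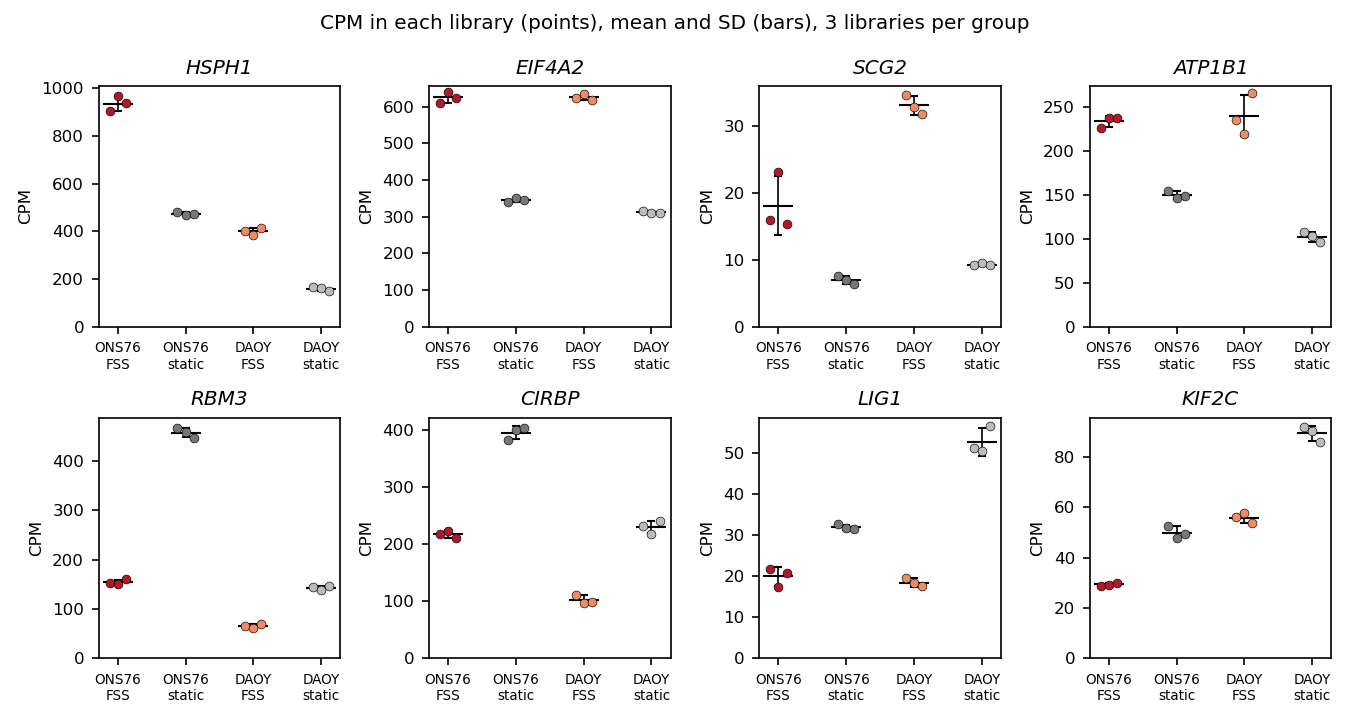
CPM of 8 members in every library, as points, with the mean and SD of each group of 3 as bars. HSPH1, EIF4A2, SCG2 and ATP1B1 are higher under FSS in both lines, and RBM3, CIRBP, LIG1 and KIF2C are lower, without overlap of points.

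The wider list of splicing factors and nuclear RNA-binding proteins had 9 of 20 tested genes called higher and 4 lower. The level was reached by 19, with 8 rising members (42.1%, against 13.5% of all genes). Another 2 were falling members (10.5%, against 17.6% of all genes) and 3 had opposite signs. SRSF7, an SR splicing factor, rose by 0.54 ± 0.032, SRSF10 by 0.29 ± 0.026 and the pre-mRNA-binding HNRNPC by 0.41 ± 0.026, while HNRNPD, which binds AU-rich mRNA, fell (-0.35 ± 0.027). The CDC-like kinases CLK1 (0.27) and CLK4 (0.33) and the U1 snRNP-associated LUC7L (0.45) were rising members too. RSRP1, an arginine- and serine-rich nuclear protein outside the list, was at 72.7, 73.7 and 69.3 CPM under FSS in ONS76 and at 38.2, 41.0 and 37.7 CPM in static culture. In DAOY it was at 94.1, 89.9 and 103 CPM against 36.0, 38.6 and 37.3 CPM. Both lines gave a clear gap, with an average rise of 1.12 ± 0.037. EIF4A2, an RNA helicase of translation initiation, was at 611, 640 and 625 CPM against 341, 351 and 346 CPM in ONS76, and at 625, 634 and 619 CPM against 315, 311 and 310 CPM in DAOY. The FSS levels met while the static level was lower in DAOY (difference of responses 0.15, adjusted p = 0.0232), and the average rise of 0.93 ± 0.024 had among the smallest errors of the named members.

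Genes of DNA replication fell together. Of 38 tested genes of the G1/S and DNA replication list, 35 were called lower and 0 higher, and the median average change was -0.41. The level was reached by 36, with 31 falling members (86.1%, against 17.6% of all genes). Counts per bulk RNA sample cannot tell fewer dividing cells from less of each transcript per cell. LIG1, the ligase that joins Okazaki fragments, was at 21.7, 17.4 and 20.8 CPM under FSS in ONS76 and at 32.6, 31.7 and 31.4 CPM in static culture. Levels in DAOY were 19.5, 18.2 and 17.5 CPM against 51.1, 50.3 and 56.6 CPM. The static level was higher in DAOY while the FSS level was alike, so the fall was larger there (difference -0.84, adjusted p = 1.14e-07), with an average of -1.10 ± 0.049. CHAF1B, a histone chaperone subunit that follows the replication fork, fell by 1.06 ± 0.055 on the log2 scale, and CDC45, part of the replicative helicase, by 1.04 ± 0.057. RRM2, the small subunit of ribonucleotide reductase, which makes deoxynucleotides, was at 45.3, 51.7 and 51.0 CPM against 82.6, 82.4 and 86.1 CPM in ONS76 and at 83.8, 80.9 and 83.8 CPM against 169, 158 and 162 CPM in DAOY. TK1, a thymidine kinase of S phase that lies outside the list, was at 78.8, 75.8 and 79.3 CPM against 137, 137 and 140 CPM, and at 25.4, 24.5 and 22.8 CPM against 61.4, 54.8 and 58.5 CPM. In each line both genes had their FSS libraries well below the static ones. The helicase subunits MCM2 to MCM7 were all falling members, from -0.27 (MCM3) to -0.70 (MCM5). E2F1, whose promoter is printed above with 2 of its own kind of site, was at -0.85.

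Genes of mitosis fell as well. All 36 tested genes of the G2/M list were called lower, with a median of -0.41. All 36 were at the level, with 30 falling members (83.3%, against 17.6% of all genes). KIF2C, a kinesin that removes tubulin at kinetochores, was at 28.9, 29.2 and 29.8 CPM under FSS in ONS76 and at 52.5, 47.6 and 49.5 CPM in static culture. In DAOY it was at 56.2, 57.5 and 53.6 CPM against 91.9, 90.2 and 86.0 CPM. The log2 change was -0.77 in ONS76 and -0.68 in DAOY, and the difference of the responses, 0.09, was not called (adjusted p = 0.411). MYBL2, which codes for the B-MYB transcription factor, was at -0.84 ± 0.034, KIF11 at -0.54 ± 0.029 and TOP2A, the DNA topoisomerase of dividing cells, at -0.54 ± 0.026. The kinetochore genes KNTC1 (-1.11 ± 0.047), SPC24 (-0.99 ± 0.057) and CENPH (-0.92 ± 0.042) and PKMYT1 (-1.05 ± 0.048), a kinase that holds the mitotic kinase inactive before mitosis, were outside the list and among the 15 largest falls. CDKN1B, an inhibitor of cyclin-dependent kinases, was a rising member at 0.29 ± 0.031, and CDKN2C, another inhibitor, fell (-0.45 ± 0.041).

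Repair genes that act on replicating DNA fell along with them. Of 24 tested genes of repair by recombination, 20 were called lower and 1 higher. The level was reached by 21, with 15 falling members (71.4%, against 17.6% of all genes) and 1 rising (4.76%). BRIP1, a helicase of the Fanconi pathway, was at 9.11, 8.51 and 9.68 CPM under FSS in ONS76 and at 19.3, 17.5 and 16.8 CPM in static culture. DAOY gave 12.8, 15 and 12.8 CPM against 28.5, 32.0 and 28.9 CPM. In each line the FSS libraries lay well below the static ones, with an average of -1.06 ± 0.059. FANCI (-0.62 ± 0.034), of the Fanconi ID complex, XRCC2 (-0.53 ± 0.042), a factor of recombination, and EXO1 (-0.46 ± 0.040), an exonuclease, also fell. FANCB, of the Fanconi core complex, was the rising member of the list at 0.40.

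**Figure D4:**
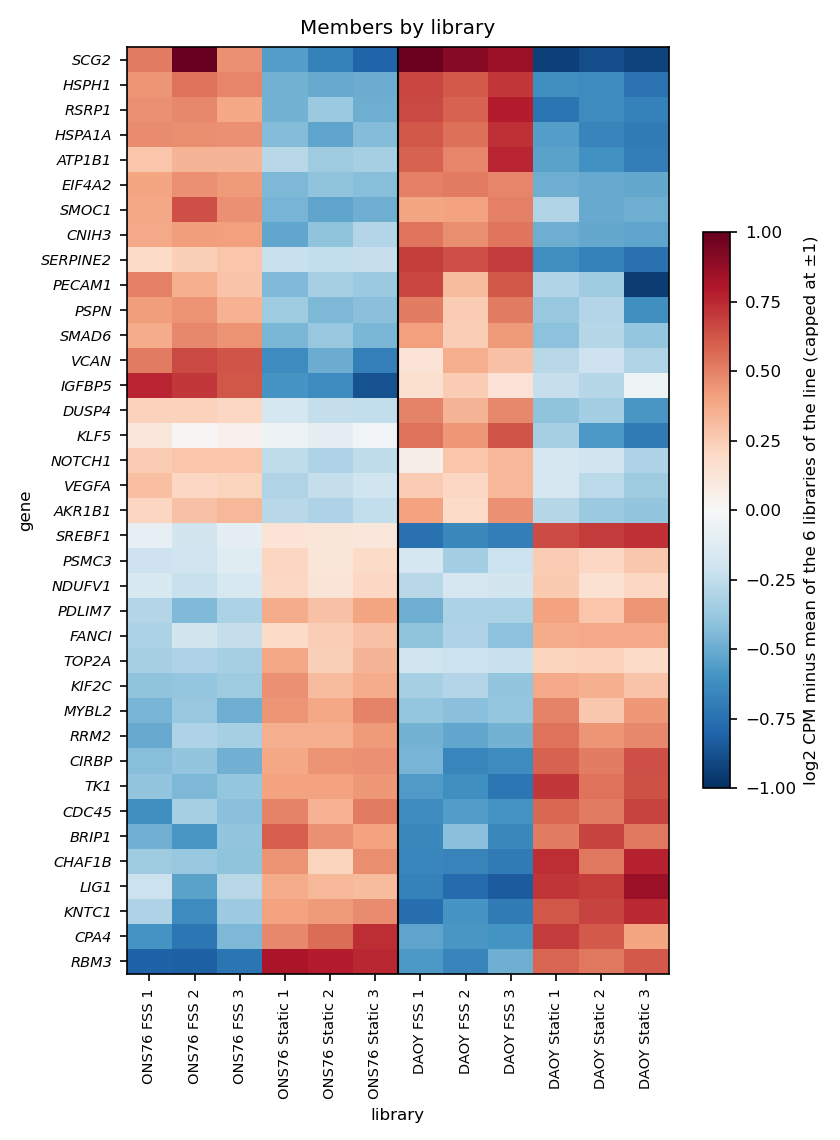
Members (rows) in each of the 12 libraries (columns), coloured by log2 CPM minus the mean of the 6 libraries of the line, capped at 1 in each direction. Rising members are red under FSS and blue in static culture in both lines and falling members the reverse, with IGFBP5 and VCAN stronger in ONS76 and SREBF1 and KLF5 stronger in DAOY.

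Subunits of the proteasome and of the respiratory chain fell by smaller amounts. Of 28 tested proteasome genes, 23 were called lower and 0 higher, with a median of -0.18. The level was reached by 26, with 17 falling members (65.4%, against 17.6% of all genes). PSMC3, an ATPase subunit of the proteasome cap, was at 184, 185 and 195 CPM under FSS in ONS76 against 246, 230 and 242 CPM, and at 155, 138 and 151 CPM against 209, 202 and 211 CPM in DAOY. The average change of -0.42 ± 0.030 was the largest fall among the proteasome members, followed by PSMD8 (-0.39 ± 0.031). Of 24 tested nuclear genes of the respiratory chain, 15 were called lower and 1 higher. All 24 were at the level, with 10 falling members (41.7%). NDUFV1, of complex I, was at -0.39 ± 0.031, and UQCRC1, of the third complex, at -0.38 ± 0.027. Glycolysis genes were less uniform: 6 of 24 were called higher and 11 lower, with 1 rising and 4 falling members of 22 at the level. The falling share, 18.2%, is near the 17.6% over all genes. Its falling members include PFKL (-0.42 ± 0.033), a phosphofructokinase, and GAPDH (-0.23 ± 0.024). The cytosolic ribosomal proteins changed little, with a median of -0.058 over 28 genes and 1 member, RPS2 (-0.14 ± 0.028), a gene with many near-identical copies.

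Of 21 tested genes of the sodium pump, SGK1 and osmolyte list, 15 were called higher and 2 lower. Over all tested genes, 20.2% were called higher and 20.2% lower. The level was reached by 16, with 8 rising members (50%, against 13.5% of all genes) and 1 falling (6.25%, against 17.6%). ATP1B1, a beta subunit of the sodium pump, was at 227, 238 and 238 CPM under FSS in ONS76 and at 155, 147 and 149 CPM in static culture. In DAOY it was at 236, 220 and 266 CPM against 108, 103 and 96.9 CPM. The FSS levels met while the static level was lower in DAOY, so the rise was larger there (difference 0.59, adjusted p = 1.57e-07), with an average of 0.94 ± 0.035. ATP1B3 (0.49 ± 0.030), another beta subunit of the pump, was a rising member. AKR1B1, the aldose reductase that makes the osmolyte sorbitol, rose by 0.63 ± 0.034, and NFAT5, a transcription factor of osmotic stress, was at 0.45. SLC6A6, the taurine transporter, fell (-0.61 ± 0.036). SGK1, a kinase that acts on sodium transport, was not shared: it was at 67.7, 65.2 and 69.6 CPM against 97.9, 91.5 and 88.3 CPM in ONS76, and at 86.5, 88.6 and 96.6 CPM against 39.1, 36.8 and 32.6 CPM in DAOY.

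Early response and feedback genes of growth factor signalling rose where they were shared. Of 22 tested immediate early genes, 12 were called higher and 4 lower, with a median of 0.077 in ONS76 and 0.312 in DAOY. The level was reached by 15, with 6 rising members (40%, against 13.5% of all genes), 0 falling and 2 of opposite sign. The 6 were ZFP36L1 (0.36 ± 0.026), an mRNA decay factor, IER2 (0.34 ± 0.037), IER3 (0.33), MCL1 (0.32 ± 0.026), IER5 (0.31 ± 0.033) and JUN (0.28), part of AP-1. Of 18 tested MAP kinase feedback genes, 13 were called higher and 0 lower, with a median of 0.074 in ONS76 and 0.435 in DAOY. The level was reached by 15, with 4 rising members (26.7%), 0 falling and 2 of opposite sign. DUSP4, a phosphatase that switches off MAP kinases, was at 997, 996 and 979 CPM under FSS in ONS76 against 753, 719 and 716 CPM, and at 63.6, 57.2 and 62.9 CPM against 34.2, 35.7 and 30.1 CPM in DAOY. The static levels of the lines were far apart and both moved up, by 0.66 ± 0.033 on average. SPRY4, an inhibitor of receptor signalling, rose by 0.61 ± 0.036 and the receptor EPHA2 by 0.56 ± 0.036. The lines differed for EPHA2, at 0.191 in ONS76 and 0.937 in DAOY (edgeR difference 0.746, adjusted p = 2.51e-09).

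Notch, TGF-beta and angiogenic genes also held rising members. Of 19 tested Notch genes, 8 were called higher and 1 lower. The level was reached by 11, with 4 rising members (36.4%, against 13.5% of all genes), 0 falling and 2 of opposite sign. The receptor NOTCH1 was at 904, 919 and 915 CPM under FSS in ONS76 against 636, 612 and 635 CPM, and at 37.1, 43.2 and 44.8 CPM against 31.7, 31.0 and 28.7 CPM in DAOY. The ligand JAG1 (0.32 ± 0.032), the target HEY1 (0.38 ± 0.039) and the DNA-binding partner RBPJ (0.13 ± 0.030) rose with it, and the average for NOTCH1 was 0.50 ± 0.034. The rise of JAG1 was larger in DAOY (0.495, against 0.135 in ONS76, edgeR difference adjusted p = 7.39e-05). The same held for HEY1 (0.571 against 0.180, edgeR difference adjusted p = 0.000322). In DAOY alone RBPJ was not called (0.095, edgeR adjusted p = 0.0654). Of 29 tested TGF-beta and BMP genes, 17 were called higher and 3 lower. The level was reached by 20, with 5 rising members (25%), 2 falling (10%, against 17.6% of all genes) and 1 of opposite sign. SMAD6, an inhibitor of BMP signalling, was at 23.6, 25.4 and 24.9 CPM against 13.3, 14 and 13.3 CPM in ONS76 and at 35.3, 31.5 and 35.6 CPM against 19.9, 21.7 and 20.3 CPM in DAOY. That is an average rise of 0.80 ± 0.048, while ID1, a BMP target, was a falling member at -0.24 and the receptor TGFBR1 another (-0.24 ± 0.028). Of 22 tested angiogenic genes, 11 were called higher and 2 lower. The level was reached by 17, with 5 rising members (29.4%), 1 falling (5.88%) and 3 of opposite sign. VEGFA, the main endothelial growth factor, was at 265, 249 and 252 CPM against 175, 183 and 188 CPM in ONS76 and at 225, 218 and 238 CPM against 168, 157 and 148 CPM in DAOY. Its rise was 0.49 in ONS76 and 0.53 in DAOY, the related ligands VEGFC (0.31) and PGF (0.37 ± 0.044) rose too, and the ephrin EFNB2 fell (-0.38 ± 0.058).

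**Figure D5:**
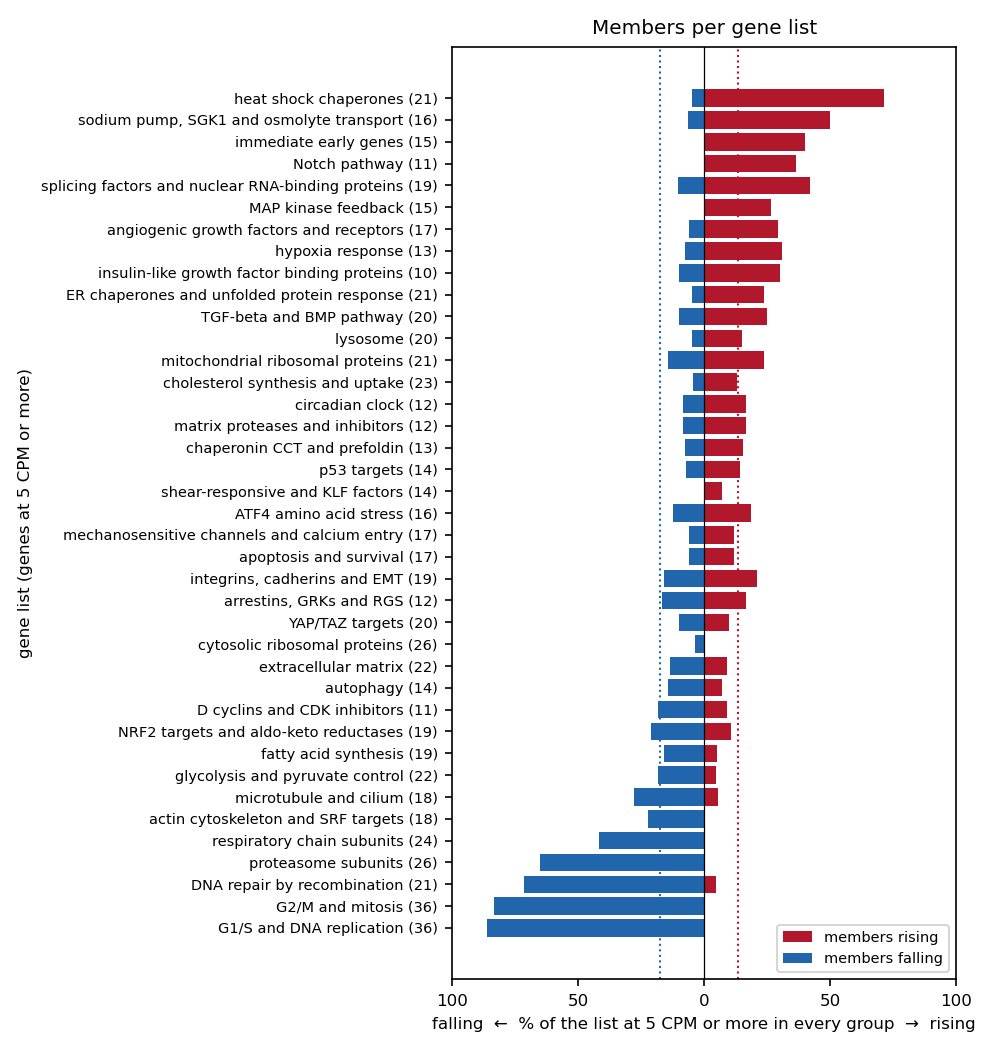
Members rising (right) and falling (left) as a percentage of the genes of each list that reached 5 CPM in every group, for lists with 10 or more such genes (numbers in brackets). Dotted lines give the share over all 9012 genes (13.5% rising, 17.6% falling), which the cell cycle, repair, proteasome and respiratory chain lists exceed most on the left (41.7% or more) and the heat shock, sodium pump, splicing factor and immediate early lists most on the right (40% or more).

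Other named rising members have varied roles. SERPINE2, a secreted protease inhibitor, was at 231, 238 and 245 CPM under FSS in ONS76 against 173, 171 and 172 CPM, and at 591, 571 and 592 CPM against 239, 229 and 218 CPM in DAOY, an average rise of 0.91 ± 0.027. SMOC1, a matricellular protein, rose by 0.93 ± 0.052, CNIH3, an auxiliary protein of AMPA receptors, by 0.92 ± 0.038, and PSPN, persephin, a ligand of the GDNF family, by 0.83 ± 0.063. PROX1, a homeobox transcription factor, rose by 0.95 ± 0.055. PECAM1, an adhesion protein that marks endothelium, was at 27.2, 24.7 and 23.3 CPM against 14.1, 15.2 and 14.8 CPM in ONS76 and at 13.4, 10.5 and 13.0 CPM against 6.87, 6.6 and 4.36 CPM in DAOY. The groups did not overlap, and the average rise was 0.91 ± 0.078. PECAM1 belongs to a list of 6 endothelial markers, of which 5 reached 1 CPM in some library, 2 were called higher (PECAM1 and CDH5) and 2 lower (KDR and VWF). Their summed level was 44.9 to 47.6 CPM under FSS and 31.7 to 32.6 CPM in static culture in ONS76, and 21.9 to 26.5 against 17.3 to 18.5 CPM in DAOY. Without PECAM1 the sum was 20.4 to 21.6 CPM against 16.5 to 18.5 CPM in ONS76, and in DAOY 11.4 to 13.1 CPM against 11 to 13 CPM, where the groups overlapped. Whether cells of another type take part in this was not tested.

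Among the falls, CPA4, a secreted carboxypeptidase, was at 8.34, 7.63 and 9.23 CPM under FSS in ONS76 against 17.6, 18.6 and 21.0 CPM, and at 8.42, 8.08 and 7.99 CPM against 19.7, 18.5 and 15.9 CPM in DAOY. Its levels were alike in the lines in both conditions, and it fell by 1.16 ± 0.067 on the log2 scale. APOBEC3B, a cytidine deaminase, fell by 1.09 ± 0.061, DCAF16, a substrate receptor of a ubiquitin ligase, by 1.10 ± 0.046, and C1RL, a protease related to complement C1r, by 0.93 ± 0.060. PDLIM7, which binds actin filaments, was at -0.73 ± 0.040, and 4 of the 18 actin genes at the level were falling members with 0 rising (22.2% falling, against 17.6% of all genes). ITGA3, an integrin chain that binds laminin, fell (-0.48 ± 0.027) while ITGA2, which binds collagen, rose (0.40 ± 0.027).

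By the edgeR test of DAOY response minus ONS76 response, the size of the response differed between lines for 689 of 2796 members (24.6%). The test is built from the same libraries as the rule but is not fixed by it. It called 19.1% of all tested genes, but those include genes below 5 CPM, so the shares are not compared. Among the 689 members the response was larger in DAOY for 210 rising and 335 falling members and larger in ONS76 for 79 rising and 65 falling members. EPPK1, epiplakin, an epithelial cytoskeletal linker, was at 1193, 1230 and 1140 CPM against 1081, 1039 and 1057 CPM in ONS76, and at 51.9, 56.1 and 58.6 CPM against 13.1, 18.6 and 13.8 CPM in DAOY. The rise was slight in ONS76 and steep in DAOY (difference 1.71, adjusted p = 2.62e-15). CLDN4, a tight junction claudin, had a difference of 1.51 (adjusted p = 1.24e-09) and KCNJ2, an inward rectifier potassium channel, of 1.24 (adjusted p = 4.73e-13). SREBF1, the transcription factor of lipid synthesis, was at 268, 250 and 265 CPM against 312, 309 and 308 CPM in ONS76, and at 48.5, 51.9 and 50.4 CPM against 128, 132 and 135 CPM in DAOY. The fall was shallow in ONS76 (-0.25) and deep in DAOY (-1.39), with a difference of -1.14 (adjusted p = 3.84e-16). IGFBP5, a secreted binding protein of insulin-like growth factors, was the reverse: 337, 325 and 307 CPM against 132, 129 and 109 CPM in ONS76, and 2127, 2271 and 2101 CPM against 1624, 1561 and 1850 CPM in DAOY. Its rise was 1.39 in ONS76 and 0.37 in DAOY (adjusted p = 1.95e-11), and VCAN, the matrix proteoglycan versican, also rose more in ONS76 (difference -0.68, adjusted p = 9.76e-06).

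Of the 616 genes with opposite signs, 405 were higher under FSS in ONS76 and lower in DAOY, and 211 the reverse. The difference of responses was called for 594 of them, which the choice of opposite signs favours, so nothing is read from that count. DKK1, a secreted Wnt antagonist, was at 48.4, 51.0 and 57.7 CPM against 107, 107 and 114 CPM in ONS76 and at 38.3, 40.5 and 40.7 CPM against 19.9, 16.5 and 15.8 CPM in DAOY. It thus fell by 1.06 in ONS76 and rose by 1.19 in DAOY on the log2 scale, so the average of 0.067 describes neither line. FST, follistatin, which binds activins, and CEBPD, a transcription factor, also fell in ONS76 and rose in DAOY, and COL4A6, a basement membrane collagen chain, rose in ONS76 (0.80) and fell in DAOY (-0.88).

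Some genes known from shear or from medulloblastoma were looked up by name, and most were not members. PIEZO1, a mechanically gated channel, was at 95.4, 90.6 and 93.5 CPM under FSS in ONS76 against 85.3, 87.9 and 93.1 CPM, and at 42.7, 49.2 and 49.7 CPM against 54.1, 53.4 and 52.1 CPM in DAOY. The libraries overlapped in ONS76 and not in DAOY, and the average was -0.051 ± 0.035 (adjusted p = 0.274). PIEZO2 had 0.228 to 0.669 CPM in ONS76 and so missed the level (average 0.22 ± 0.18, adjusted p = 0.38). KLF2, a shear-induced factor of endothelium, was at 18.1, 16.6 and 19.3 CPM against 17.8, 19.3 and 19.2 CPM in ONS76 and at 7.82, 7.08 and 8.66 CPM against 5.91, 5.35 and 5.30 CPM in DAOY. It therefore overlapped in ONS76 and did not in DAOY, as did KLF4 (0.068 and 0.33 on the log2 scale). KLF5, of the same family, was a member at an average of 0.59 ± 0.042. Its rise was small in ONS76 (0.108, edgeR adjusted p = 0.154) and large in DAOY (1.063). CCN1, a target of YAP and TAZ, had opposite signs (-0.79 in ONS76 and 0.29 in DAOY). MYC (-0.098 ± 0.037), the glucose transporter SLC2A1 (0.073 ± 0.029) and GLI1 (0.34 ± 0.13), a target of Hedgehog signalling, were not members. Their average effects were still called by edgeR (adjusted p = 0.0348, 0.0407 and 0.0407). So were those of KLF2 (adjusted p = 0.00683) and KLF4 (adjusted p = 8.18e-05), and some of these calls were lost in other settings. PDK1, a kinase that restrains pyruvate oxidation, had the second-deepest average fall of the named genes, -1.33 ± 0.072, and was no member only because its FSS libraries in DAOY were at 3.58, 3.94 and 3.26 CPM.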

How the data were processed

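Strand-marking polyA libraries were prepared from total RNA of RIN above 9.8 and read from both ends, per the labels' protocols. Alignment was by HISAT2 2.2.1 to GRCh38 and counting by featureCounts, per the submitters' processing notes; how the counter treated strand and overlaps, and with which gene models, is not stated there. The authors deposited raw counts per gene and a table of TPM values made from the same libraries, and all columns matched a sample (0 unmatched). Genes that overlap on either strand, or that have near-identical copies, may share reads.

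The model was fitted in edgeR 4.0.16 (R 4.3.3) after filterByExpr (19631 genes, 99.96% of counts) and TMM scaling, with 1 mean per group. Quasi-likelihood F tests were two-sided, and the threshold was an adjusted p (Benjamini-Hochberg, all tested genes) under 0.05. The average effect is the mean of the ONS76 and the DAOY log2 fold change, and the difference is DAOY minus ONS76. SE is the absolute log2 fold change over the root of F. The fit was tested on simulated data. Alternatives were DESeq2 1.42.0, limma 3.58.1 on log2(TPM + 1) and log2(TPM + 0.1), other scalings, filters and levels, the replicate block, and libraries left out.

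Members, 53 gene lists (7 of cell type markers) and tests were chosen with earlier results of these data known. The named genes are members: the 15 with the largest average rise and fall, the 10 with the largest weaker response, the 5 that differ most between lines, up to 4 per list, and the 5 of highest level past 2-fold, per direction; also 12 genes chosen whatever their values and 5 of opposite sign. Other members of the lists were named after their values were seen. Transcript length and GC content are those of the longest GENCODE 29 transcript of each gene. Promoters are from RefSeq (entries for 992 of 1214 rising and 1318 of 1582 falling members). Of 8 motifs searched, 4 are described. The static ONS76 libraries 1 and 2 were kept.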

Additional observations from a re-analysis of the deposited data

Results flagged for a closer look

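Where a named gene's response differed between the lines past the threshold and by 2-fold or more (1 on the log2 scale, DAOY response minus ONS76 response), it is listed here; 13 of the 193 named genes met this, and another 79 differed past the threshold by less. Groups of 3 libraries are too small to test a single library as apart from the others.

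Among members of the shared response, 7 had such a difference while moving the same way in both lines. The rise was larger in DAOY for EPPK1 (1.71), CLDN4 (1.51), KCNJ2 (1.24), SLCO4A1 (1.11), an organic anion transporter, and SLITRK6 (1.10), a neuronal membrane protein. It was larger in ONS76 for IGFBP5 (-1.02). SREBF1 fell more in DAOY (-1.14).

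The other 6 had opposite signs: DKK1 (2.25), SGK1 (1.78), FST (1.67), CEBPD (1.48) and CCN1 (1.07) were lower under FSS in ONS76 and higher in DAOY, and COL4A6 (-1.68) was the reverse. For COL4A6 the libraries were at 186, 177 and 166 CPM against 101, 108 and 94.9 CPM in ONS76, and at 5.44, 6.78 and 6.59 CPM against 11.3, 10.8 and 12.6 CPM in DAOY.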

How the results depend on the processing

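Over 24 settings, 4574 of 4629 recomputed average effects of named genes kept their direction and their side of the threshold, 50 lost the call, 1 gained it and 4 changed sign. The sign changes were in COL4A6 (0.046 in limma on log2(TPM + 1), -0.075 to 0.002 when 1 library was left out, 0.009 without static ONS76 libraries 1 and 2) and in PIEZO2 (-0.139 without those static libraries), none of them called. The lost calls were in CCT6A, MYC, GLI1, SLC2A1, CEBPD, SC5D, ATG14 and KLF2. Leaving out 1 library at a time gave 3640 to 3841 genes higher, 3712 to 3934 lower, 1237 to 1393 rising and 1601 to 1780 falling members, 699 to 782 genes of opposite sign and 605 to 701 members with responses of different size. Over all settings these counts ran from 2907 to 4454, 2773 to 4130, 837 to 1509, 1109 to 1980, 458 to 1108 and 481 to 822. The highest count of opposite genes, 1108, came without static ONS76 libraries 1 and 2, where non-overlap needs fewer libraries. That setting left the heat shock list at 15 rising members and the G2/M list at 30 falling, and 33 G1/S genes fell. Upper-quartile scaling gave 55.1% of calls higher against 50% with TMM, and 1434 rising and 1434 falling members.

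Replicate numbers are shared between groups, but same-numbered libraries of a line deviated together only weakly, with correlations of -0.109 to 0.11, and between lines the same number gave -0.0289 to 0.201; as not every pair was above 0.1, the numbers were not taken to pair the libraries. A replicate block within line gave 3906 genes higher, 3933 lower and 676 members of different size, and a block shared by both lines 3895, 3908 and 696. Not every library correlated best with its own number. Depth limits genes below 5 CPM, where 1028 genes met the rule of no overlap and were left out.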

Other observations

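Some gene lists held members of both directions, as do all genes at the level (13.5% rising, 17.6% falling). Of 22 tested mitochondrial ribosomal protein genes 21 were at the level, with 5 rising members (23.8%) and 3 falling (14.3%). MRPS30 (0.29 ± 0.033) had the largest average change among the rising members, and MRPL15 (-0.28 ± 0.040) was among the falling. Cholesterol synthesis and uptake had 3 rising members, SCAP, MSMO1 and SC5D, and 1 falling, HMGCS1 (-0.32 ± 0.042), of 23 genes at the level (13% and 4.35%), while 5 had opposite signs in the lines. Of 12 clock genes at the level 2 were rising members (16.7%), BMAL1 (0.38 ± 0.039) and NFIL3 (0.27 ± 0.034). The falling member was NR1D2, a repressor of the clock (-0.23 ± 0.028), or 8.33% of the list. The microtubule and cilium list leaned downward, with 2 of 22 tested genes called higher and 10 lower. Of 18 at the level 1 was a rising member (5.56%), IFT20 (0.31 ± 0.045), of cilium transport. Another 5 were falling members (27.8%), among them IFT52 (-0.42 ± 0.041) and IFT74 (-0.37 ± 0.040), also of cilium transport. Of 19 tested interferon-stimulated genes 0 were called higher and 10 lower by edgeR on the average effect. Over all tested genes, edgeR called 20.2% higher and 20.2% lower. Only 4 of the interferon-stimulated genes reached the level, and the median change of the list was -0.61 in ONS76 and -0.017 in DAOY. Of 23 tested genes of the NF-kB list 9 were called higher and 4 lower. The median change was 0.000 in ONS76 and 0.312 in DAOY. Of 9 at the level 3 were rising members (33.3%): PTGS2 (0.57 ± 0.044), which makes prostaglandins, NFKBIA (0.34 ± 0.033) and NFKB1 (0.22 ± 0.031). Another 1 was falling (11.1%), SOD2 (-0.20 ± 0.031), and 1 had opposite signs.

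Rising and falling members differed in transcript length and little in base composition. The longest annotated transcript of each gene was used, which need not be the one expressed. Its median length was 4382 bases for rising members, 3554 for falling members and 3952 for all genes at 5 CPM or more in every group. The median GC content of these transcripts was 47.1%, 47.6% and 47.5%. The median level over the 4 groups was 52.7 CPM for rising and 54.2 CPM for falling members, against 47.4 CPM for all genes at the level.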
